A study of Mus musculus with 16 samples.

Results

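The 10 genes described here are the transcription factor gene Nfe2l2, which encodes NRF2, and 9 genes of the antioxidant program known to respond to it: Slc7a11, Gclc, Gclm, Txnrd1, Srxn1, Cat, Hmox1, Nqo1 and Sqstm1. They were chosen by name, with earlier results of these data known, and all 10 were found among the 32285 genes of the count matrices. NRF2 is held low by KEAP1, an adaptor that delivers it for degradation. When electrophiles or oxidants modify KEAP1, or when the autophagy receptor encoded by Sqstm1 binds it, NRF2 accumulates, pairs with small MAF proteins and activates genes through the antioxidant response element. Because this control acts on the protein, the mRNA of Nfe2l2 is not a measure of NRF2 activity. In macrophages the program supplies glutathione and thioredoxin, breaks down hydrogen peroxide and recycles heme and iron.

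The transcriptomes of single cells were read in cultures of bone marrow stroma from 12-week-old mice, grown for 21 days in osteoblastic medium with 10 mM beta-glycerophosphate. The 4 genotypes all carry floxed Fgf23 alleles. WT mice have intact Dmp1 and no Cre, Fgf23cKO mice carry Cre under the Dmp1 promoter, which is active in osteocytes and mature osteoblasts, Dmp1KO mice lack Dmp1 in every cell and have no Cre, and Dmp1KO Fgf23cKO mice combine the global Dmp1 deletion with the Cre. Myeloid cells grown in these cultures therefore lack Dmp1 in the Dmp1KO genotypes, while deletion of Fgf23 is directed to osteoblast lineage cells. Counts of 3 tagged cultures were used for WT, Fgf23cKO and Dmp1KO Fgf23cKO and of 2 for Dmp1KO, where the counts of culture 1 were not used here. The cultures of a genotype were pooled in 1 droplet reaction, so genotype cannot be told apart from droplet reaction, and p-values measure the spread between cultures within reactions.

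The 11 tagged cultures held 14577 cells, and 3216 untagged cells of the same pools entered the clustering and an alternative setting, but not the main fits. Total UMIs per tagged culture ranged from 9518928 to 72482185, and the median per cell was 7137 to 7276 UMIs in the WT cultures against up to 34988 in the other genotypes. No 2 samples shared more than 6 cell barcodes. Dmp1, the deleted gene, was at 0 to 3 UMIs in each Dmp1KO sample, at 1.32 to 2.16 CPM (UMIs per 1e6 UMIs) in the tagged Dmp1KO Fgf23cKO cultures and at 7.55 to 108 CPM in the tagged cultures with intact Dmp1. Fgf23 had at most 8 UMIs in any sample, too few to check its deletion.

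Cells were grouped by clustering without the 10 genes or the wider lists of NRF2 regulators, NRF2 targets and antioxidant enzymes among the genes used. Myeloid-like cells, which express pan-myeloid markers such as Lyz2, Tyrobp and Ctss, made up 10706 of the tagged cells. The stromal classes were small: 375 osteoprogenitor-like, 305 pre-osteoblast-like and 217 osteoblast/osteocyte-like tagged cells. The myeloid-like cells of the genotypes came from different clusters. Cluster 0, led by Marco and Maf, held a mean of 80.0% of WT myeloid-like cells and at most 1.61% in the other genotypes. Cluster 1, led by F13a1, Cd86 and Mrc1, held 50.2% in Fgf23cKO and 74.8% in Dmp1KO Fgf23cKO. Clusters 2, 3, 4 and 7 together held most of the Dmp1KO cells, with 24.7%, 22.0%, 19.7% and 13.4%. A difference between genotypes in the summed myeloid-like cells is therefore also a difference between mixtures of clusters, and fewer expressing cells and less RNA per cell cannot be told apart in the sums.

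The antioxidant response element has the core TGACNNNGC, which was looked for on both strands from 250 bases before to 50 after each RefSeq gene start (GRCm38.p6). It is present in 12.4% of the 32851 promoters of that table, and 14% of its 27025 genes have a promoter with it. Promoters were found for 8 of the 10 genes, and 4 of these genes hold the core. The matches are shown with 10 bases on either side and the core in capitals, each read 5′ to 3′ on the strand that holds it. They are matches of letters only, and whether NRF2 acts at any of them was not tested.
Gclm: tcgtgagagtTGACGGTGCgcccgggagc
Nfe2l2: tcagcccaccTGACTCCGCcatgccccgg
Srxn1: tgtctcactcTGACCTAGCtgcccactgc
Txnrd1: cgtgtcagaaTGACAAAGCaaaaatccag
The Gclm stretch is at chr3:122245413-122245441 on the minus strand, and its core lies 134 bases before the gene start. The Nfe2l2 stretch is at chr2:75704885-75704913 on the minus strand, with the core 240 bases before the start. The Srxn1 stretch is at chr2:152105542-152105570 on the minus strand, with the core 28 bases after the start. The Txnrd1 stretch is at chr10:82859104-82859132 on the minus strand, 92 bases before the start of 1 of 3 alternative promoters. The Cat, Nqo1, Slc7a11 and Sqstm1 windows do not hold these letters, which says nothing of sites elsewhere. In the GENCODE M21 annotation all 10 genes are protein coding: Nfe2l2 (ENSMUSG00000015839) spans chr2:75675513-75704641 on the minus strand, Cat (ENSMUSG00000027187) chr2:103453849-103485160 on the minus strand, Gclm (ENSMUSG00000028124) chr3:122245557-122270732 on the plus strand and Gclc (ENSMUSG00000032350) chr9:77754535-77794485 on the plus strand.

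In myeloid-like cells, Dmp1KO cultures had the lowest level of 8 of the 10 genes, and by the ratio of mean CPM the shortfall was largest for Cat (0.33 of WT) and Gclm (0.41). Levels are given as CPM, the UMIs of a gene scaled to a common total over the class, for each culture. Fold changes are from edgeR, which scales libraries with TMM factors, with p-values adjusted over 13467 genes and a threshold of 0.1. In Dmp1KO compared with WT, 3 of the 10 genes rose (Srxn1, Sqstm1 and Txnrd1, none of which stayed higher past the threshold with library totals) and 7 fell, with a median log2 fold change of -0.62. With library totals none rose and 8 fell, Txnrd1 among them, and the median was -0.85. Over all genes the median was 0.0018 with TMM factors and lower with library totals. The share of all genes called with library totals is not given here, so those counts do not set the 10 genes apart. In this comparison 68.8% of genes passed the threshold with TMM factors, so passing it does not set a gene apart. How many of all genes were lowest in Dmp1KO by CPM was not counted, so the 8 of 10 does not set these genes apart either. The summed level of the 10 genes was 3130 to 3291 CPM in WT, 2995 to 3192 in Fgf23cKO, 1843 to 1865 in Dmp1KO and 2940 to 3018 in Dmp1KO Fgf23cKO.

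**Figure D1:**
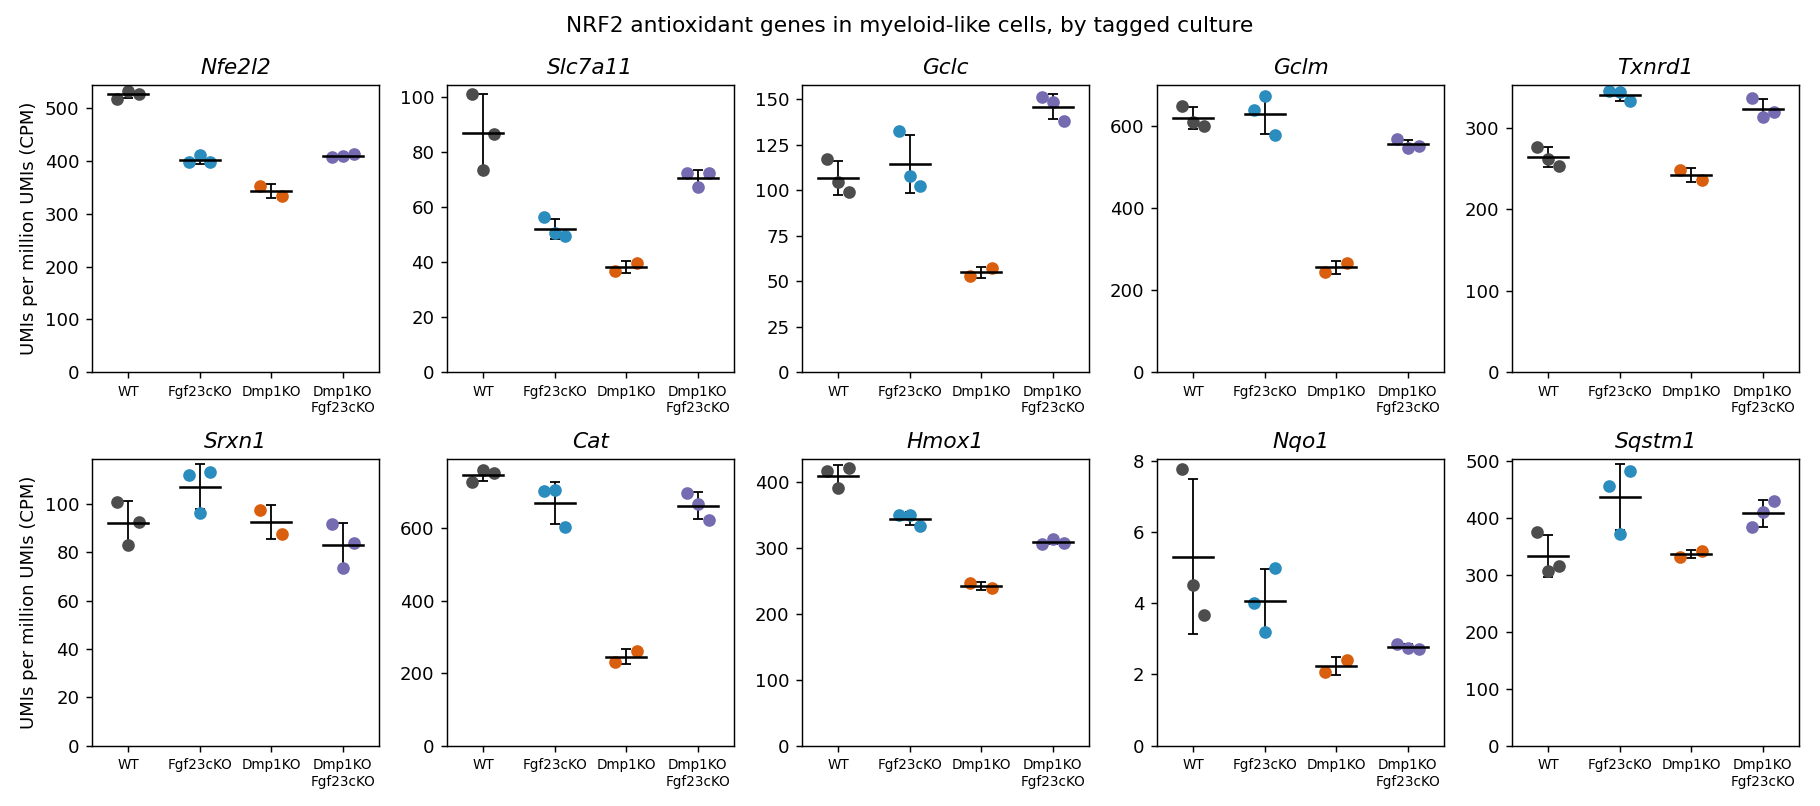
Level of each gene (CPM, axis from 0) in myeloid-like cells by genotype; points are tagged cultures (n = 3, 3, 2 and 3), lines the mean and bars the SD. The 2 Dmp1KO cultures lie below every other culture for Nfe2l2, Slc7a11, Gclc, Gclm, Txnrd1, Cat, Hmox1 and Nqo1, but not for Srxn1 or Sqstm1. CPM carry no TMM factors, and the share of all genes with this pattern was not counted.

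Cat encodes catalase, which splits hydrogen peroxide in peroxisomes. It was at 728, 760 and 753 CPM in WT, 701, 704 and 602 in Fgf23cKO, 231 and 260 in Dmp1KO, and 696, 667 and 621 in Dmp1KO Fgf23cKO. Both Dmp1KO cultures were far below all others, and the 2 genotypes with Fgf23 deletion overlapped each other. Cat fell by 1.38 on the log2 scale in Dmp1KO compared with WT (SE 0.0751, adjusted p = 3.64e-09, edgeR) and was higher by 1.16 in Dmp1KO Fgf23cKO than in Dmp1KO (SE 0.0743, adjusted p = 2.24e-08, edgeR). The log2 fold changes from WT were smaller in Fgf23cKO (-0.17, SE 0.0645, edgeR adjusted p = 0.0459) and Dmp1KO Fgf23cKO (-0.22, SE 0.0643, edgeR adjusted p = 0.0109).

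Gclm and Gclc encode the modifier and the catalytic subunit of glutamate-cysteine ligase, the first enzyme of glutathione synthesis. Gclm was at 651, 611 and 601 CPM in WT, 639, 674 and 578 in Fgf23cKO, 245 and 267 in Dmp1KO, and 569, 548 and 551 in Dmp1KO Fgf23cKO. Gclc was at 117, 105 and 98.8 CPM in WT, 133, 108 and 103 in Fgf23cKO, 52.9 and 57.1 in Dmp1KO, and 151, 149 and 138 in Dmp1KO Fgf23cKO. For both subunits the Dmp1KO cultures stood apart from all 9 others, while WT and Fgf23cKO overlapped. Gclm fell by 1.05 on the log2 scale in Dmp1KO compared with WT (SE 0.0639, adjusted p = 9.22e-09, edgeR) and Gclc by 0.72 (SE 0.0918, adjusted p = 9.45e-06, edgeR). Compared with Dmp1KO, Dmp1KO Fgf23cKO cultures were higher by 0.84 for Gclm (SE 0.0632) and 1.14 for Gclc (SE 0.0901), with edgeR adjusted p of 9.06e-08 and 1.49e-07. Gclc in Dmp1KO Fgf23cKO also exceeded WT, by 0.41 (SE 0.0815, edgeR adjusted p = 0.000849), whereas Gclm stayed below WT by a log2 fold change of -0.20 (SE 0.0556, edgeR adjusted p = 0.00754).

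Slc7a11 encodes the cystine importer that feeds glutathione synthesis. It was at 101, 73.3 and 86.5 CPM in WT, 56.2, 50.4 and 49.5 in Fgf23cKO, 36.6 and 39.6 in Dmp1KO, and 72.2, 67.3 and 72.2 in Dmp1KO Fgf23cKO. No 2 genotypes overlapped. Slc7a11 was lower than in WT in all 3 mutant genotypes, with log2 fold changes of -0.95 in Dmp1KO, -0.74 in Fgf23cKO and -0.33 in Dmp1KO Fgf23cKO (SE 0.0957, 0.0900 and 0.0859; edgeR adjusted p = 1.05e-06, 2.27e-05 and 0.00527). It was higher in Dmp1KO Fgf23cKO than in either single mutant, by 0.61 against Dmp1KO and 0.41 against Fgf23cKO (edgeR adjusted p = 5.74e-05 and 0.00581).

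Txnrd1, which encodes cytosolic thioredoxin reductase, and Srxn1, which encodes the sulfiredoxin that repairs overoxidized peroxiredoxins, changed less than the glutathione genes in Dmp1KO. Txnrd1 was at 277, 262 and 253 CPM in WT, 345, 344 and 332 in Fgf23cKO, 248 and 236 in Dmp1KO, and 337, 314 and 320 in Dmp1KO Fgf23cKO. It rose in Fgf23cKO by 0.36 and in Dmp1KO Fgf23cKO by 0.25 compared with WT (SE 0.0499 and 0.0496; edgeR adjusted p = 7.18e-05 and 0.000886). In Dmp1KO the fitted log2 change was 0.11 (SE 0.0548, edgeR adjusted p = 0.0985), but its direction turned to -0.12 with library totals alone (added after seeing the data) and to -0.0171 with cells thinned to 1300 UMIs.

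Srxn1 was at 101, 82.9 and 92.5 CPM in WT, 112, 96.4 and 113 in Fgf23cKO, 97.4 and 87.5 in Dmp1KO, and 91.7, 73.5 and 83.7 in Dmp1KO Fgf23cKO. Dmp1KO and WT overlapped in CPM, and the fitted rise of 0.24 in Dmp1KO (SE 0.1004, edgeR adjusted p = 0.0469) was 0.012 with library totals (adjusted p = 0.921). This scaling moved the median of all genes in the comparison from 0.0018 to -0.23 and the share of called genes that were higher from 51.2% to 33.1%. Srxn1 in Dmp1KO Fgf23cKO was below Fgf23cKO by a log2 fold change of -0.40 (SE 0.0915, edgeR adjusted p = 0.00738), without overlap.

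Hmox1 encodes heme oxygenase 1, which frees iron from heme. It was at 415, 390 and 421 CPM in WT, 350, 349 and 333 in Fgf23cKO, 247 and 238 in Dmp1KO, and 306, 313 and 307 in Dmp1KO Fgf23cKO. The 4 genotypes did not overlap. Hmox1 fell compared with WT in each mutant, by 0.52 in Dmp1KO, 0.26 in Fgf23cKO and 0.45 in Dmp1KO Fgf23cKO on the log2 scale (SE 0.0534, 0.0477 and 0.0476; edgeR adjusted p = 1.14e-06, 0.000629 and 3.6e-06). The fitted difference between Dmp1KO Fgf23cKO and Dmp1KO was 0.0717 (SE 0.0525, edgeR adjusted p = 0.254) and missed the threshold. This rests on the scaling: the CPM values did not overlap, and with library totals the Hmox1 difference was 0.35 (SE 0.0514, edgeR adjusted p = 3.8e-05).

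Nfe2l2 itself was highest in WT, at 518, 534 and 528 CPM. It was at 398, 411 and 398 CPM in Fgf23cKO, 352 and 335 in Dmp1KO, and 408, 409 and 414 in Dmp1KO Fgf23cKO. All 8 mutant cultures lay below the 3 WT cultures. With TMM factors the log2 fold changes from WT were -0.39 in Dmp1KO, -0.40 in Fgf23cKO and -0.41 in Dmp1KO Fgf23cKO (SE 0.0517, 0.0464 and 0.0462), and all 3 passed the threshold. With library totals they were -0.62, -0.39 and -0.36, so that Nfe2l2 was lowest in Dmp1KO, as in CPM. The difference between Dmp1KO Fgf23cKO and Dmp1KO was -0.02 with TMM factors (SE 0.051, edgeR adjusted p = 0.752) and 0.26 with library totals (SE 0.047, edgeR adjusted p = 0.000254), and the CPM values of Nfe2l2 did not overlap. Against Fgf23cKO it was -0.0063 with TMM factors (SE 0.0461, edgeR adjusted p = 0.943).

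Sqstm1 encodes p62, the autophagy receptor that binds KEAP1. It was at 375, 307 and 316 CPM in WT, 455, 371 and 481 in Fgf23cKO, 331 and 342 in Dmp1KO, and 384, 410 and 430 in Dmp1KO Fgf23cKO. Dmp1KO overlapped WT in CPM, and the fitted rise of 0.25 (SE 0.0987, edgeR adjusted p = 0.0394) was 0.0186 with library totals (adjusted p = 0.879). Sqstm1 rose compared with WT by 0.38 in Fgf23cKO and by 0.25 in Dmp1KO Fgf23cKO (SE 0.0898 and 0.0895; edgeR adjusted p = 0.00371 and 0.0318).

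Nqo1, which encodes a quinone reductase widely used as a readout of NRF2, was close to the limit of detection in myeloid-like cells. It had 708 UMIs in all 11 cultures, or 2.06 to 7.77 CPM. The values were 7.77, 4.51 and 3.66 CPM in WT and 2.06 and 2.41 in Dmp1KO, a fitted log2 fold change of -0.94 (SE 0.2433, edgeR adjusted p = 0.00378). The Fgf23cKO cultures had 4.01, 3.20 and 4.98 CPM and the Dmp1KO Fgf23cKO cultures 2.86, 2.75 and 2.73. Fgf23cKO overlapped WT, while Dmp1KO Fgf23cKO lay below it without overlap, at 0.523 of its mean (log2 fold change -0.90, SE 0.2387, edgeR adjusted p = 0.00646).

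**Figure D2:**
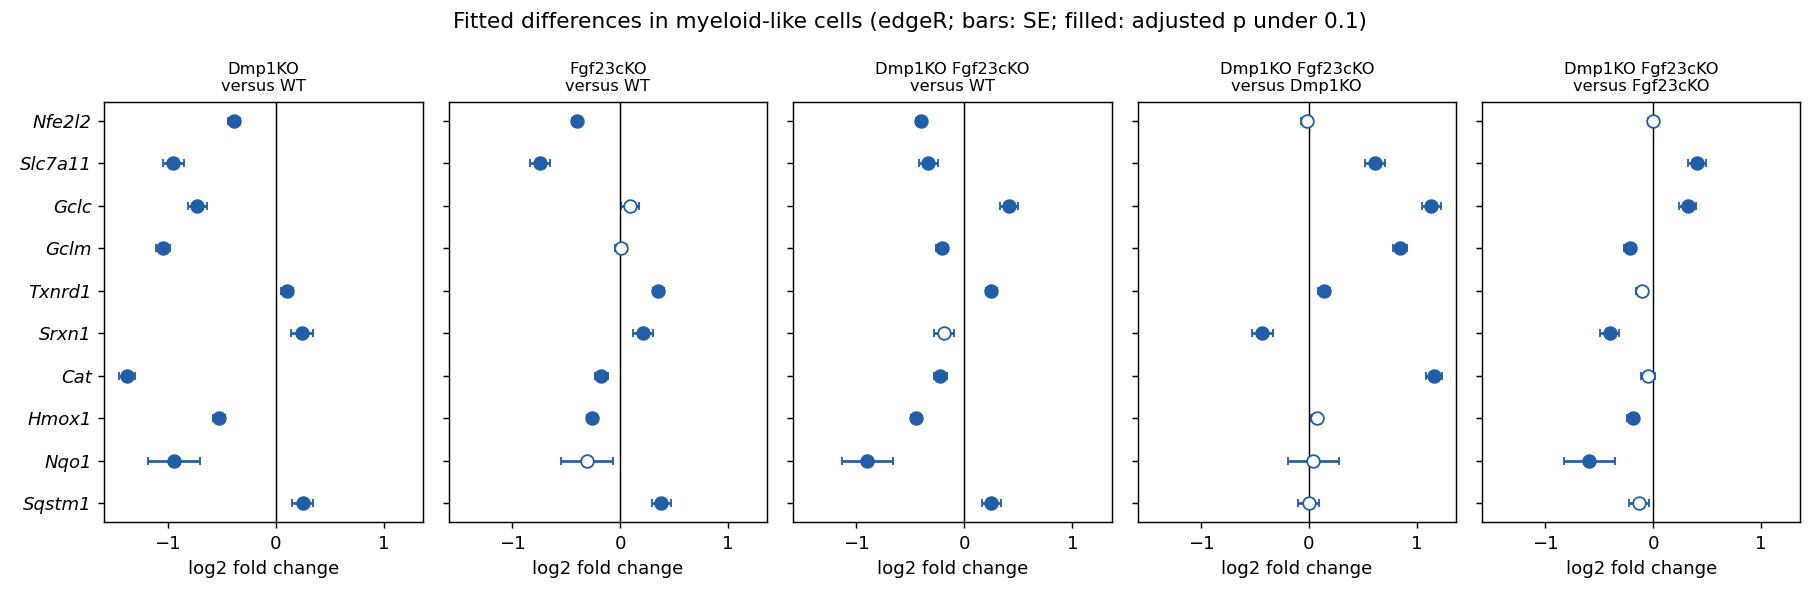
Fitted log2 fold changes in myeloid-like cells for 5 comparisons (edgeR, bars are SE, filled points have adjusted p under 0.1). Cat, Gclm, Gclc and Slc7a11 lie left of 0 in Dmp1KO versus WT and right of 0 in Dmp1KO Fgf23cKO versus Dmp1KO, while Nfe2l2 and Sqstm1 lie near 0 in the latter with the TMM factors plotted, but were 0.26 and 0.28 with library totals.

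Across the other comparisons in myeloid-like cells, 3 of the 10 genes rose and 4 fell in Fgf23cKO compared with WT, where 49.4% of all genes passed the threshold. In Dmp1KO Fgf23cKO compared with WT, 3 rose and 6 fell against 57.3% of all genes. In Dmp1KO Fgf23cKO compared with Dmp1KO, 5 rose (Cat, Gclc, Gclm, Slc7a11 and Txnrd1) and Srxn1 fell, against 66.4% of all genes. With library totals 8 of the 10 genes rose, these 5 with Nfe2l2, Hmox1 and Sqstm1, and none fell. That count is given without the share of all genes called with library totals, and this scaling also raised the median of all genes. It therefore does not set the 10 genes apart. For Srxn1 the 2 genotypes overlapped in CPM, and the fitted -0.43 was -0.15 with library totals (adjusted p = 0.177), which moved the median of all genes from -0.0466 to 0.23 and the higher share of calls from 44.6% to 70.2%. In Dmp1KO Fgf23cKO compared with Fgf23cKO, 2 rose (Slc7a11 and Gclc) and 4 fell (Srxn1, Gclm, Hmox1 and Nqo1), against 29.8% of all genes. The comparisons share cultures and are not independent of each other. The effect of the Fgf23 deletion differed between Dmp1KO and WT for 9 of the 10 genes (6 more positive in Dmp1KO and 3 more negative), in a test that 61.8% of all genes passed. With library totals the Txnrd1 difference turned from -0.22 to 0.0499, the median of all genes moved from -0.0209 to 0.24 and the higher share of calls from 47% to 66.5%.

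The wider pathway did not move in 1 direction in Dmp1KO myeloid-like cells, in a comparison with WT where 68.8% of all genes passed the threshold. Of 8 NRF2 regulators and partners, 2 rose and 4 fell (1 and 5 with library totals). Keap1 rose by 0.50 (SE 0.0658, edgeR adjusted p = 1.4e-05), from 32.7 ± 1.36 CPM in WT to 39.2 ± 1.54 (SD, n = 3 and 2), 0.27 with library totals (edgeR adjusted p = 0.00274), and it was also higher than WT in Fgf23cKO and Dmp1KO Fgf23cKO. Of 25 further NRF2 targets, 14 rose and 10 fell with TMM factors, with a median log2 fold change of 0.18. With library totals 10 rose and 11 fell and the sign of the median turned, to -0.0515. The counts with library totals are given without the share of all genes called there. Those that fell include Slc40a1, the iron exporter ferroportin (-2.20), the growth inhibitor gene Osgin1 (-1.73), Me1, a source of cytosolic NADPH (-1.39), and the aldo-keto reductase gene Akr1b8 (-1.29). Akr1b8 was at 296 ± 16.4 CPM in WT, 104 ± 4.36 in Dmp1KO (SD, n = 3 and 2) and between 277 and 285 in the Dmp1KO Fgf23cKO cultures, lowest in Dmp1KO as Cat and Gclm were. Those that rose include the ferritin light chain gene Ftl1 (1.30) and the glutathione transferase gene Gstp1 (2.40), both uncertain because near-identical copies can share their reads.

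Most antioxidant enzymes outside the 10 genes rose in Dmp1KO. Of 13 tested, 10 rose and 2 fell (8 and 2 with library totals), with a median log2 fold change of 0.77 beside 0.0018 for all genes. With TMM factors 35.2% of all genes rose and 33.6% fell in this comparison. Prdx2, a peroxiredoxin that reduces hydrogen peroxide, was at 117 ± 4.98 CPM in WT, 272 ± 5.45 in Dmp1KO and 180 ± 1.85 in Dmp1KO Fgf23cKO (SD, n = 3, 2 and 3). Gpx1, the main cytosolic glutathione peroxidase, was at 364 ± 19.1 CPM in WT, 626 ± 23.2 in Dmp1KO and 301 ± 11.6 in Dmp1KO Fgf23cKO, a fitted rise of 1.01 in Dmp1KO compared with WT (SE 0.0657, edgeR adjusted p = 1.5e-08). Sod1, the cytosolic superoxide dismutase gene, fell by 0.72 (SE 0.067, edgeR adjusted p = 4.87e-07). In Dmp1KO Fgf23cKO compared with Dmp1KO, where 66.4% of all genes passed, 2 of the enzymes rose and 9 fell, 7 of the NRF2 targets rose and 17 fell, and 3 of the regulators rose and 1 fell. With library totals these counts were 4 and 6 for the enzymes, 10 and 10 for the targets and 7 and 1 for the regulators, so the balance of the targets rests on the scaling. The share of all genes called with library totals is not given beside these list counts. The summed level of the enzymes was 2562 to 2616 CPM in Dmp1KO against 1669 to 2161 CPM in the other genotypes.

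Other programs moved with genotype in the same cells. The 14 genes of the integrated stress response, whose factor ATF4 is also known to drive Slc7a11, summed to 662 to 771 CPM in WT and 1105 to 1154 in Dmp1KO, and 10 of 13 tested rose and 1 fell in Dmp1KO, where 35.2% of all genes rose and 33.6% fell. The 12 dissociation stress genes summed to 1861 to 2099 CPM in WT and 1556 to 1566 in Dmp1KO, where 3 of 11 tested rose and 6 fell. Mitochondrial transcripts summed to 26960 to 28033 CPM in WT, 30308 to 30511 in Dmp1KO and 36054 to 40659 in both genotypes with Fgf23 deletion. Of the integrated stress response genes tested in Dmp1KO Fgf23cKO compared with Dmp1KO, 2 rose and 9 fell, and of the dissociation genes 8 rose and 3 fell, against 66.4% of all genes called. The 5 stromal marker genes summed to 45.3 to 46.1 CPM in Dmp1KO and to 113 to 333 CPM in the other genotypes. Their part in the differences of the 10 genes was not tested.

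Cluster by cluster, the members separated into patterns of their own. Means over cultures with at least 10 cells are given as a description, since clusters hold different mixtures of genotypes. Cluster 10, a small cluster led by Procr, Slc7a11 and Il1rn that held 9.17 to 14.1% of WT myeloid-like cells and a mean of at most 5.83% in other genotypes, had the highest mean over its 3 WT, 2 Fgf23cKO and 2 Dmp1KO cultures of Slc7a11 (299 CPM), Srxn1 (293), Txnrd1 (613), Gclm (920), Gclc (173), Cat (832), Hmox1 (572), Nqo1 (10.4) and Sqstm1 (947). That order did not hold within Dmp1KO, where Sqstm1 was at 465 CPM in cluster 10, 702 in cluster 4 and 649 in cluster 12, and Slc7a11 at 162 CPM in cluster 10 and 197 in cluster 12. Over all its cultures Sqstm1 averaged 931 CPM in cluster 4, the Dmp1KO-rich cluster led by Fbxo32, Ddit3 and Atp6v0d2, where Cat was at 403 CPM. Osteoclast-like cells of cluster 16, led by Mmp9, Acp5 and Ctsk, had 172 CPM of Cat and 44.3 of Gclc in 3 WT cultures, below the other clusters with WT values. Dmp1KO cells of the cycling cluster 11 were lower still, with 124 CPM of Cat and 35.8 of Gclc. The cluster means of Nfe2l2 ran from 269 to 537 CPM.

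**Figure D3:**
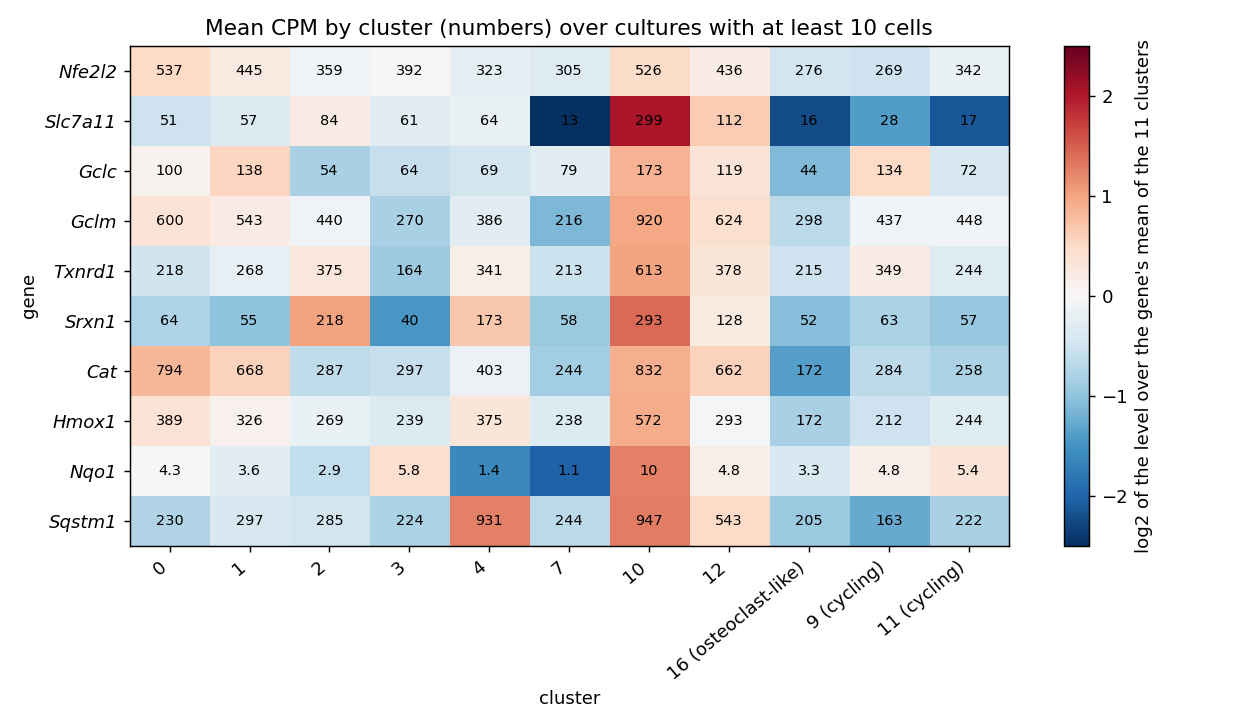
Mean level (numbers, CPM) of each gene in 9 myeloid-like and 2 cycling clusters, over the 3 to 11 cultures with at least 10 cells; color is the log2 ratio to the gene's mean over the clusters. Cluster 10 is the darkest red column for most genes, and Sqstm1 is also high in cluster 4; the clusters hold different genotypes.

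The low level of Cat, Gclm and Gclc in Dmp1KO was also present within most of the single clusters compared, by gaps of unlike size. Among 8 clusters with values from at least 3 genotypes, Dmp1KO had the lowest Cat in 8, the lowest Gclm, Gclc and Nfe2l2 in 7 and the lowest Hmox1 in 6, but the lowest Srxn1 in 2. Slc7a11 was lowest in Dmp1KO in 3 of the 8 and highest in 2, and Nqo1 was lowest in 3 and highest in 4. The 8 include the cycling clusters 9 and 11, and some means rest on few cells, such as 14 Fgf23cKO cells of 1 culture in cluster 7. How often other genes were lowest in Dmp1KO in these clusters was not counted, so the counts do not set the members apart. In cluster 10, Cat was at 964 CPM in WT (920 to 992 over 3 cultures) and 512 in Dmp1KO (510 to 514 over 2), and Gclm at 1066 and 591. In cluster 4, Cat was at 222 CPM in Dmp1KO against 470 in Fgf23cKO and 456 in Dmp1KO Fgf23cKO. Elsewhere the gap to Dmp1KO Fgf23cKO was small or absent. In cluster 3, Cat was at 262 CPM in Dmp1KO and 266 in Dmp1KO Fgf23cKO (29 cells), and Gclm at 231 and 170. In cluster 12, Gclm was at 563 CPM in Dmp1KO and 580 in Dmp1KO Fgf23cKO. In the cycling clusters 9 and 11 together, which were kept out of the myeloid-like sums, Cat fell by 1.16 (SE 0.1507), Gclm by 1.19 (SE 0.179) and Gclc by 1.06 (SE 0.1416) in Dmp1KO compared with WT, with edgeR adjusted p of 4.64e-06, 2.48e-05 and 6.11e-06.

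Cluster 1 was the only myeloid-like cluster outside the cycling ones with at least 10 cells in every tagged culture, 48 of them WT cells. In it Cat was higher in Dmp1KO Fgf23cKO than in Dmp1KO by 0.50 (SE 0.0727, edgeR adjusted p = 1.07e-05), Gclm by 0.54 (SE 0.0792, edgeR adjusted p = 1.07e-05) and Gclc by 0.63 (SE 0.082, edgeR adjusted p = 2.14e-06), less than in the summed class. Against WT the log2 fold change of Cat in this cluster was -0.21 (SE 0.1256, edgeR adjusted p = 0.362), that of Gclm -0.21 (SE 0.1474, adjusted p = 0.475) and that of Gclc -0.27 (SE 0.2397, adjusted p = 0.573), so the fall from WT did not pass the threshold there. Srxn1 was higher in Dmp1KO Fgf23cKO than in Dmp1KO within this cluster (0.29), opposite to the summed class. These within-cluster fits were added after seeing the data.

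Per cell, most pairs of members had a weak positive correlation, while some pairs with Nqo1 or Nfe2l2 had genotype medians at or below 0. Myeloid-like cells were thinned to 5000 UMIs each to remove differences in depth, which left 9867 cells, 278 to 2243 per culture, and left out 762 WT, 9 Fgf23cKO, 60 Dmp1KO and 8 Dmp1KO Fgf23cKO cells. The median Spearman rho over all pairs was 0.117. The highest pair was Gclm with Cat (median rho 0.343 over 11 cultures, 0.276 to 0.441), followed by Txnrd1 with Gclm (0.233), Srxn1 with Txnrd1 (0.220) and Slc7a11 with Sqstm1 (0.213). These 4 pairs were positive in all 11 cultures. These are descriptions, since cells of a culture share a library.

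**Figure D4:**
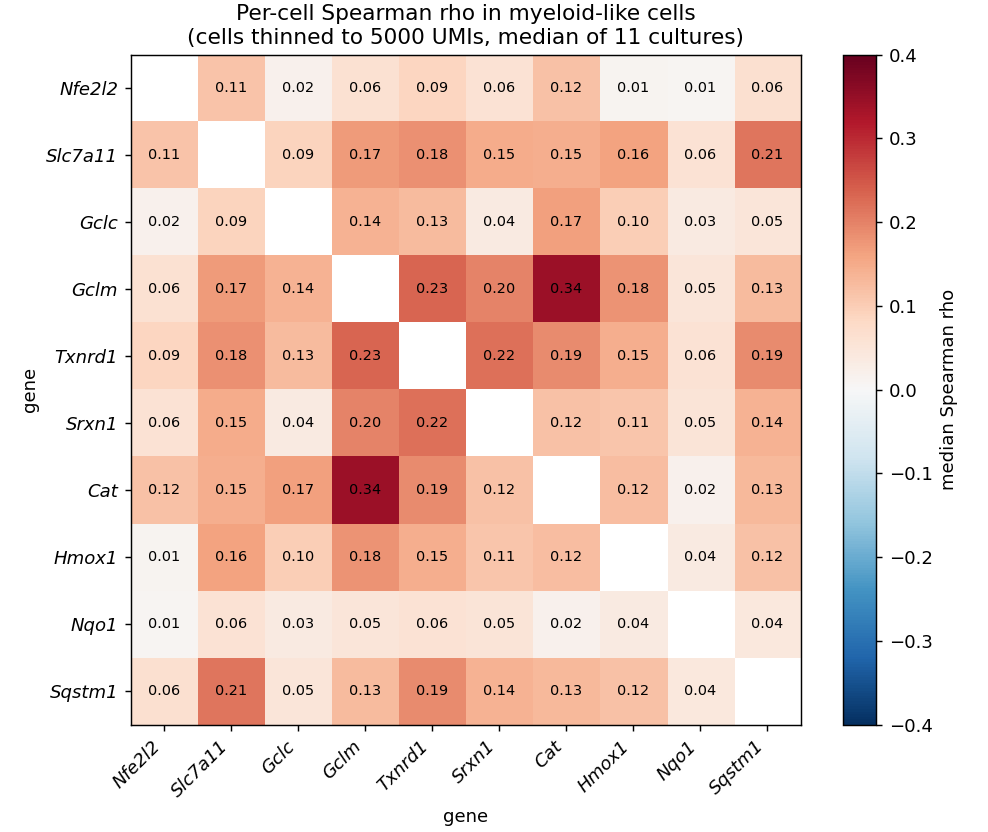
Median over 11 cultures of the within-culture Spearman rho between genes across myeloid-like cells thinned to 5000 UMIs. The pair of Gclm and Cat is the most strongly colored (0.343), and the rows of Nqo1 and Nfe2l2 are pale.

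Against the sum of the other 9 members, Gclm had the highest median rho (0.385), then Cat (0.342), Txnrd1 (0.326) and Srxn1 (0.285). Nfe2l2 (0.133) and Nqo1 (0.051) were lowest. For 9 of the 10 genes, all but Nqo1, the median was lowest in Dmp1KO, a difference that was not tested. There the median for Hmox1 was 0.136 against 0.332 in Fgf23cKO and that for Sqstm1 was 0.107 against 0.287 in WT. Thinning evened the total UMIs of cells but not those of the members, whose summed level was lowest in Dmp1KO (1843 to 1865 CPM). Whether fewer member UMIs lower these medians was not tested, and other genes were not compared in this way. Within single clusters, over 31 combinations of cluster and culture with at least 50 cells, the medians were 0.345 for Gclm, 0.295 for Txnrd1 and 0.282 for Cat. Of the 10 genes, a thinned cell of Dmp1KO held a UMI of 4.54 to 4.64 on average over its cultures, against a lowest of 5.40 in the other genotypes. Cells with at least 7 of the 10 genes made up 11.9 to 12.8% of cells in the Dmp1KO cultures, 24.0 to 26.4% in WT, 25.2 to 28.3% in Fgf23cKO and 27.3 to 29.6% in Dmp1KO Fgf23cKO. Both measures also move with the level of the genes.

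Among 4972 other genes with a UMI in at least 10% of thinned cells of every culture, the 10 most like the summed members were Prdx1 (median rho 0.429 over 11 cultures), Creg1 (0.384), Fth1 (0.351), Clec4n (0.333), Gpnmb (0.320), Clec4d (0.320), Lipa (0.309), Ctsd (0.308), Tnfaip2 (0.302) and Esd (0.281). The median over these 4972 genes was 0.0062, with 5th and 95th percentiles of -0.0871 and 0.0782. Fth1 ranged from 0.0894 to 0.473 and Ctsd from 0.0145 to 0.359 over the cultures, so their likeness was not even. Prdx1 encodes a peroxiredoxin of the cytosol, and its level went against that of Cat: it rose by 0.49 in Dmp1KO compared with WT (SE 0.0724, edgeR adjusted p = 4.1e-05; 0.26 with library totals) and was lower in Dmp1KO Fgf23cKO than in Dmp1KO (log2 fold change -1.26, SE 0.0721, edgeR adjusted p = 7.77e-09).

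The stromal classes had lower levels of most members, and part of what was measured there was myeloid RNA. The pan-myeloid genes Lyz2, Tyrobp, Fcer1g, Ctss and Laptm5 reached a median of 4.98 to 44.6% of their myeloid-like level in osteoprogenitor-like cells, 4.16 to 13.7% in pre-osteoblast-like cells and 4.70 to 13.2% in osteoblast/osteocyte-like cells, depending on the culture. Multiplying that share by the myeloid-like level of a gene gives the level that myeloid RNA alone would leave. For Cat this was 115 CPM in osteoprogenitor-like cells, or 83.8% of the 138 measured, and 71.0 CPM in osteoblast/osteocyte-like cells, or 90.9% of the 78.1 measured. For Gclm in osteoprogenitor-like cells it was 100.0 CPM of 122 measured. Levels this close to carry-over are read as background.

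On average every member but Slc7a11 was above that background in all 3 classes, some only slightly. The ratio of measured level to background was highest for Nqo1 in each class, on 24 UMIs in osteoblast/osteocyte-like cells. Sqstm1 had the next highest ratio, except in pre-osteoblast-like cells, where Nfe2l2 was just above it. Nqo1 was at 18.8 ± 14.5 CPM (SD, n = 11) in osteoprogenitor-like cells, where myeloid RNA would leave 0.716, and at 3.72 ± 1.62 CPM in myeloid-like cells; its osteoprogenitor-like value rests on 56 UMIs. Sqstm1 was at 172 ± 50.2 CPM in osteoprogenitor-like cells, where 69.6 would come from myeloid RNA, and at 244 ± 51.8 in the pre-osteoblast-like class, where 27.3 would. Nfe2l2 was at 268 ± 55.9 CPM in pre-osteoblast-like cells with 29.9 from myeloid RNA, and Txnrd1 at 116 ± 27.3 with 20.8. Myeloid RNA would leave 65.5% of the Nfe2l2 measured in osteoprogenitor-like cells and 36.2% of that in osteoblast/osteocyte-like cells. In pre-osteoblast-like cells, Cat was at 76.8 ± 15.4 CPM with 41.5 from myeloid RNA, against 611 ± 187 in myeloid-like cells (SD, n = 11).

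**Figure D5:**
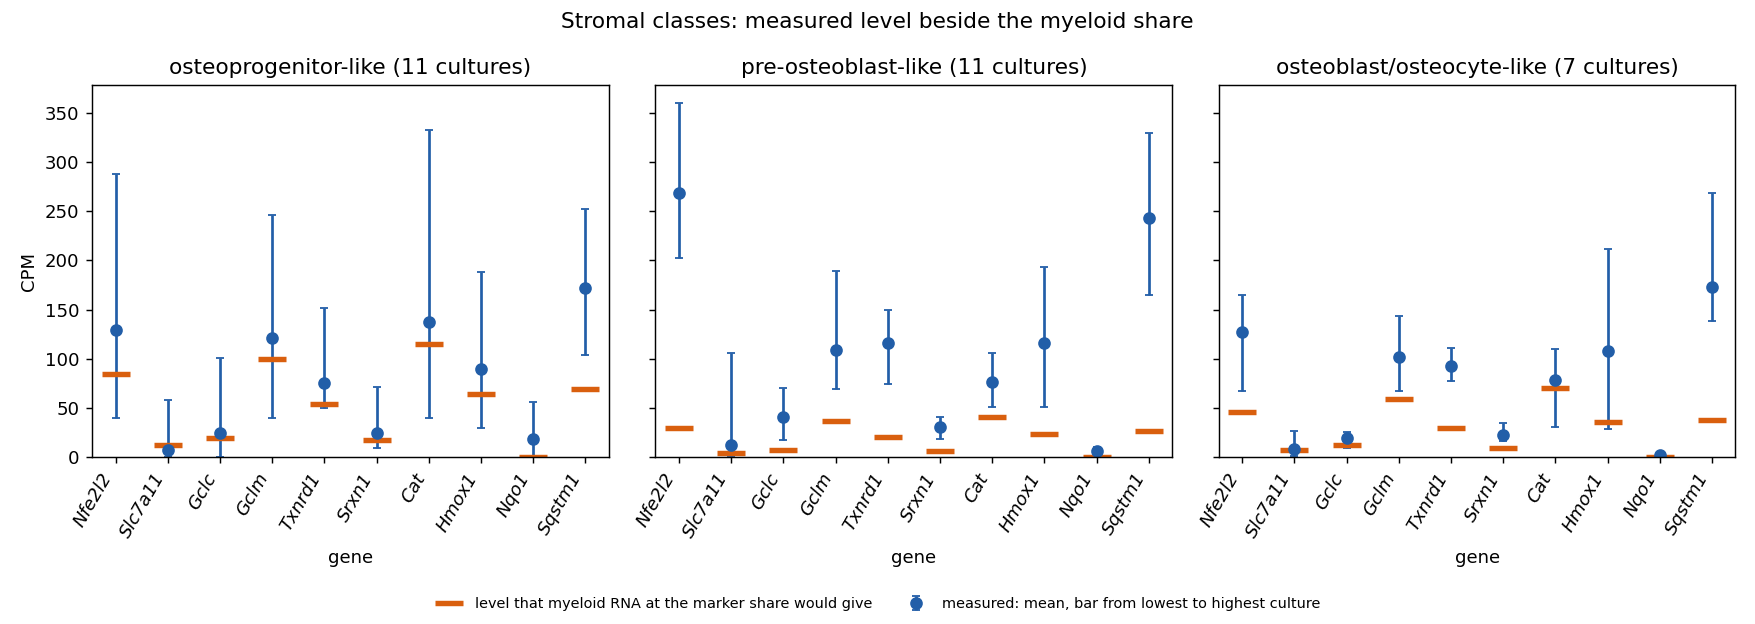
Measured level (CPM; point, mean over cultures; bar, lowest to highest culture) of each gene in the 3 stromal classes, beside the level that myeloid RNA would leave at the share of pan-myeloid markers (dash). Measured levels lie near the dash for Cat in osteoprogenitor-like and osteoblast/osteocyte-like cells, and well above it for Nfe2l2 and Sqstm1 in pre-osteoblast-like cells.

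In osteoprogenitor-like cells, 8 members were tested among 4922 genes. Compared with WT, Nfe2l2 fell in Fgf23cKO by 1.33 on the log2 scale (SE 0.344, edgeR adjusted p = 0.0216) and in Dmp1KO Fgf23cKO by 1.19 (SE 0.3296, edgeR adjusted p = 0.0225). It was at 195, 260 and 288 CPM in WT, 86.2, 40.1 and 93.1 in Fgf23cKO, 125 and 102 in Dmp1KO, and 79.0, 60.6 and 93.0 in Dmp1KO Fgf23cKO, and WT did not overlap the mutants. These values rest on 282 UMIs of Nfe2l2 over the 11 cultures, and the median WT cell of the class had 2284 UMIs in total. Myeloid RNA would leave 76.3, 238 and 144 CPM of Nfe2l2 in the WT cultures and 20.5 to 125 CPM in the mutants. Net of it, WT cultures 1 and 3 kept 119 and 145 CPM, but WT culture 2 kept 21.9 CPM, within the range of the mutants (-0.118 to 60.8 CPM), and the call was not tested on these net values. These were the only member calls, 1 of 8 in each, where 17.6% and 23.6% of all genes passed; none of 8 passed in Dmp1KO compared with WT (12.4% of genes; 2 members at an unadjusted p under 0.05), in Dmp1KO Fgf23cKO compared with Dmp1KO (1.93%; 1 member) or with Fgf23cKO (0.061%; 1 member). The myeloid marker share was highest in 2 of the 3 WT cultures and 1 Dmp1KO culture (27.2%, 44.6% and 35.6%), and no member was called with cells thinned to 1300 UMIs.

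In pre-osteoblast-like cells all 10 members were tested among 11664 genes. Slc7a11 was called in all 3 comparisons with WT, but the call rests on 1 cell. WT culture 2 had 106 CPM against 1.28 to 8.40 CPM in the 10 other cultures, and 44 of its 45 UMIs came from 1 of its 19 cells, which also had 348 UMIs of Lyz2 where the median cell had 8. Without that culture the log2 fold change was -1.35 in Dmp1KO, -0.33 in Fgf23cKO and -1.34 in Dmp1KO Fgf23cKO, with edgeR adjusted p of 0.363, 0.851 and 0.277. Cat was the other call, with a log2 fold change of -0.61 in Dmp1KO compared with WT (SE 0.2085, edgeR adjusted p = 0.098), with a fold change of -0.32 without WT culture 3 (adjusted p = 0.376), and it passed in 2 of the 11 fits that left out 1 culture. Myeloid RNA would leave 54.0% of the Cat measured in this class, as a mean over cultures. Cat in myeloid-like cells was itself at 0.33 of WT in Dmp1KO. The myeloid marker share was 4.56, 7.31 and 8.03% in the WT cultures and 9.72 and 7.30% in the Dmp1KO cultures. The Cat call was not tested net of this background. The members called were 2 of 10 in Dmp1KO (12.3% of all genes), 1 in Fgf23cKO (11.6%) and 1 in Dmp1KO Fgf23cKO (16.1%) compared with WT. None was called by edgeR in Dmp1KO Fgf23cKO compared with Dmp1KO (1.15%; 4 members at an unadjusted p under 0.05) or with Fgf23cKO (1.68%; 0 members).

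Osteoblast/osteocyte-like cells allowed 1 comparison, since only WT and Dmp1KO Fgf23cKO had at least 2 sums of 10 cells. Hmox1 was at 163, 124 and 127 CPM in WT and 56.0, 44.7 and 28.9 in Dmp1KO Fgf23cKO, and fell by 1.74 on the log2 scale (SE 0.2107, edgeR adjusted p = 0.00104). Gclm was at 124, 100.2 and 112 CPM in WT and 80.6, 89.4 and 67.1 in Dmp1KO Fgf23cKO, and fell by 0.59 (SE 0.1643, edgeR adjusted p = 0.0484). These 2 of 8 members tested compare with 14% of all 8611 genes. The Gclm call was lost without WT culture 1 (adjusted p = 0.139), WT culture 3 (adjusted p = 0.153) or Dmp1KO Fgf23cKO culture 3 (adjusted p = 0.114). The single Fgf23cKO sum had 211 CPM of Hmox1 and 144 of Gclm. In measured CPM, neither gene overlapped between WT and Dmp1KO Fgf23cKO. The mean level that myeloid RNA would leave in this class was 36.1 CPM for Hmox1 and 59.7 CPM for Gclm. That was 33.4% of the Hmox1 measured and 58.3% of the Gclm. The myeloid marker share was 8.92 to 13.1% in the WT cultures. It ran from 4.70% in Dmp1KO Fgf23cKO culture 3 to 13.2% in Dmp1KO Fgf23cKO culture 1. Neither the calls nor the lack of overlap was tested net of this background, which differed between cultures.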

How the data were processed

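The authors used Cell Ranger and mm10, per the labels, to obtain UMI counts for every gene in every cell, and separated cultures by CellPlex tag, which removes multiplets between cultures. The deposited values are raw counts without normalization. Multiplets within a culture remain, and no doublet caller was run here. The 10 genes and the wider lists (regulators, targets, antioxidant enzymes, integrated stress response, dissociation genes) were chosen with earlier results of these data known. Named genes are the 10 members, the 8 most changed genes of each wider list in Dmp1KO compared with WT in myeloid-like cells, and the 10 genes most correlated with the members.

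Clustering used Seurat 5.3.0 (R 4.3.3; sctransform 0.4.2; 3000 variable genes, 30 principal components, resolution 0.8, no filter on cells), after 30 list genes were taken out of the variable genes. Classes were named from marker lists. For each class, the counts of a tagged culture with 10 or more cells were added up and fitted in edgeR 4.0.16 (quasi-likelihood test, TMM, filterByExpr, Benjamini-Hochberg), with all genotypes of at least 2 sums in 1 fit. CPM are UMIs of a gene per 1e6 UMIs of the class. The fits were tested on simulated data in which a small share of genes changed, as many up as down. That test cannot speak to the choice between TMM factors and library totals. Alternatives were RLE factors, DESeq2 1.42.0, no filter on low counts, a replicate block, untagged cells as a further replicate, a cell filter (at least 500 genes, under 20% mitochondrial UMIs), thinned cells, other resolutions, each culture left out, and, chosen after seeing the data, library totals, cluster 1 alone and cycling clusters. Untagged samples are the cells numbered 4 in the labels, read as the nondoublet cells without a tag in the methods. The 1935 barcodes of Dmp1KO culture 1 have no counts among the values used here. Each culture's UMI total limits the precision of its CPM.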

Additional observations from a re-analysis of the deposited data

Results flagged for a closer look

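The effect of the Fgf23 deletion on 9 of the 10 genes differed between Dmp1KO and WT myeloid-like cells, in an edgeR test of the interaction with an adjusted p under 0.1, which 61.8% of all genes also passed. The difference of the 2 log2 effects (in Dmp1KO minus in WT) was 1.35 for Slc7a11 (SE 0.1294), 1.33 for Cat (SE 0.0976), 1.04 for Gclc (SE 0.1217), 0.83 for Gclm (SE 0.0837), 0.38 for Nfe2l2 (SE 0.0691) and 0.33 for Hmox1 (SE 0.071). It was -0.65 for Srxn1 (SE 0.1357), -0.38 for Sqstm1 (SE 0.1328) and -0.22 for Txnrd1 (SE 0.0736). With library totals in place of TMM factors, Txnrd1 turned to 0.0499, Sqstm1 no longer passed, and Nfe2l2 was 0.65, Hmox1 0.60 and Srxn1 -0.38. The mixture of clusters differed between the genotypes in the same sums, and its part was not tested. In cluster 1 alone 2 of the 10 genes passed, a count not set beside the share of all genes there.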

How the results depend on the processing

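Of 1377 recomputed fold changes of called members over 29 settings, 1216 kept their direction and stayed past the threshold, 142 kept the direction only and 19 reversed. In myeloid-like cells under the settings planned, 968 kept both, 62 lost the threshold and 1 reversed (Txnrd1 in Dmp1KO compared with WT, -0.0171 with thinned cells). With library totals, Txnrd1 was -0.12 there and 0.0499 in the interaction. The counts of members called under each setting below are given without the share of all genes called there. They therefore do not set the members apart from other genes.

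In cluster 1 alone, with 48 WT cells, the members called were 2 in Dmp1KO, 2 in Fgf23cKO and 1 in Dmp1KO Fgf23cKO compared with WT, and 2 in the interaction. Reversed there were, in Dmp1KO compared with WT, Slc7a11 (0.43), Nqo1 (0.15) and Sqstm1 (-0.13); in Fgf23cKO compared with WT, Hmox1 (0.0015), Sqstm1 (-0.0735) and Cat (0.32); in Dmp1KO Fgf23cKO compared with WT, Slc7a11 (0.0948), Gclm (0.34) and Cat (0.28); compared with Dmp1KO, Slc7a11 (-0.34) and Srxn1 (0.29); compared with Fgf23cKO, Srxn1 (0.10); and in the interaction, Sqstm1 (0.54). In the cycling clusters alone, 3 were called in Fgf23cKO and 5 in Dmp1KO Fgf23cKO compared with WT and 0 in Dmp1KO Fgf23cKO compared with Fgf23cKO, and Txnrd1 (-0.16, Dmp1KO compared with WT), Gclc (-0.0388, Dmp1KO Fgf23cKO compared with WT) and Hmox1 (-0.0889, interaction) reversed. With thinned cells, 2 were called in Dmp1KO Fgf23cKO compared with Fgf23cKO. The cause was not tested; these settings hold fewer cells or UMIs.

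The calls over all comparisons in osteoprogenitor-like cells, 2 as reported, were 9 with library totals, 0 without the filter on low counts, 6 with untagged samples, 0 with thinned cells, 14 with list genes kept in the clustering and 14 at resolution 0.4. In pre-osteoblast-like cells, 4 as reported, they were 17 without the filter, 10 with untagged samples, 1 with thinned cells, 1 at an adjusted p under 0.05 and 1 to 6 with 1 culture left out. In osteoblast/osteocyte-like cells, 2 as reported, they were 1 with library totals, 4 without the filter, 1 by DESeq2, 1 with untagged samples, 0 with thinned cells and 1 to 4 with 1 culture left out. A fit that leaves 1 Dmp1KO culture assumes that it varies like the other groups. The median pairwise rho of 0.117 was 0.0492 with cells thinned to 1300 UMIs and 0.182 without thinning.

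Same-numbered cultures did not deviate together (correlations of -0.23 to 0.15), so the numbers were not taken as pairs. With the replicate block, 10 members were called in Dmp1KO, 7 in Fgf23cKO and 10 in Dmp1KO Fgf23cKO compared with WT, 6 and 5 in Dmp1KO Fgf23cKO compared with Dmp1KO and Fgf23cKO and 9 in the interaction, and 2, 3 and 3 in the 3 stromal classes.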
